A study of Arabidopsis thaliana with 18 samples.

Results

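The response of splicing to a warmer temperature was followed in *sdg8-2*, an *Arabidopsis thaliana* T-DNA insertion line that lacks the histone methyltransferase SDG8. The members are all splicing events that the deposited table lists with a value above 0 in *sdg8-2* at one temperature or the other, 397 of 399 events, and the measure is the percentage spliced in (PSI) at 25 °C minus the PSI at 16 °C. They carry 332 gene names, and 1 of them names no gene. Both rows of *FLM* (AT1G77080), a MADS-box repressor of flowering, are written as 0 at both temperatures in *sdg8-2* and were set aside.

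Most Arabidopsis genes with introns can give more than 1 mRNA. An intron may stay in the transcript (intron retention, IR), the spliceosome may choose another acceptor (alternative 3′ site, A3) or another donor (alternative 5′ site, A5), an exon may be left out (exon skipping, ES), or exons may replace each other (mutually exclusive exons, MXE). SDG8 is the main enzyme that places trimethylation on lysine 36 of histone H3 (H3K36me3), a mark of the bodies of transcribed genes. In animals and yeasts this mark is read by proteins that can bring splicing factors to the transcript as it is made.

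Plants of *sdg8-2*, of *sdg26-1*, a T-DNA line without the related methyltransferase SDG26, and of wild type (WT, accession Col-0) were grown for 5 weeks at 16 °C with 8 h of light and 16 h of darkness, and were then kept at 25 °C for 1 day or left at 16 °C. There were 3 samples of each genotype at each temperature, 18 in all, and thus 3 of *sdg8-2* at 25 °C and 3 at 16 °C. A sample was tissue of about 10 plants from which leaves had been taken off to enrich the shoot apical meristem (SAM), and the labels name the tissue as SAM with leaves of early stages. Each mutant is a single insertion line and all groups are in the Col-0 background. SDG8 (AT1G77300) has no event in the table and expression levels are not part of it, so neither the mutation nor markers of the tissue could be checked.

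PSI runs from 0 to 1 and is the share of transcripts of an event that carry the spliced-in form. For IR this was read as the form that keeps the intron and for ES as the form that keeps the exon. The table does not state which site counts as spliced in for A3 and A5, so for these types a higher PSI gives the size of a shift and not which site gained. The authors merged the 3 samples of each condition, so every value is 1 pooled estimate with 2 decimals, no value has a replicate error, and no difference was tested. The depth behind each value is unknown. In this mixed tissue a shift in the share of cell types and a shift of splicing within cells cannot be told apart. Every listed event had been called as changed by temperature in at least 1 of the 3 genotypes, so the set holds events that respond and the counts describe it alone.

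After 1 day at 25 °C, PSI in *sdg8-2* was higher in 170 events, lower in 224 and equal in 3. The median change was −0.03, with quartiles of −0.12 and 0.09, and the median size without regard to sign was 0.11. A change of at least 0.1 was used throughout as the limit for counting. By this limit 97 events (24.4%) were higher at 25 °C and 127 (32.0%) were lower, 224 in either direction (56.4%). The changes were mostly moderate. At least 0.2 was reached by 29 events in the higher and 51 in the lower direction, at least 0.3 by 8 and 9, at least 0.4 by 2 and 3, and at least 0.5 by 2 events that were lower. Lower PSI was thus the more frequent direction at limits of 0.1 and 0.2, and the counts were close at 0.3. This is a direction of PSI only. For the 130 A3 and 72 A5 events included here, the sign does not name the site that gained.

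**Figure D1:**
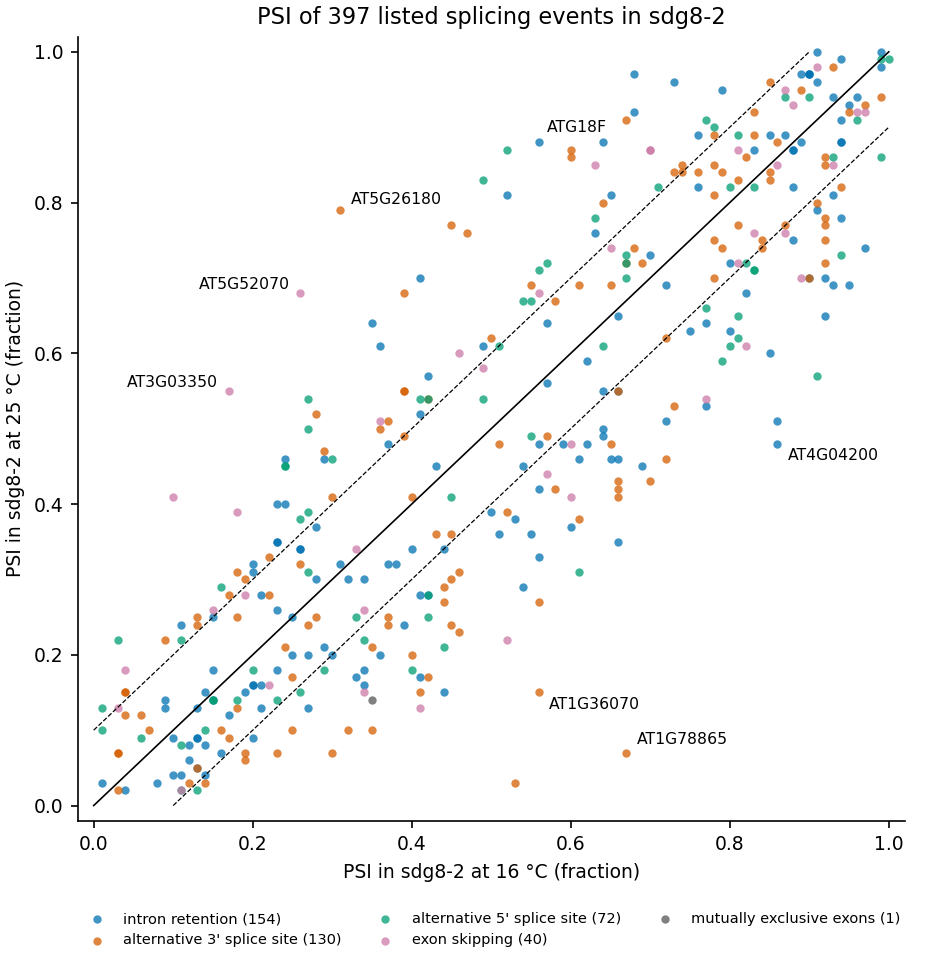
PSI of each of the 397 events in *sdg8-2* at 25 °C (vertical axis, fraction) against 16 °C (horizontal axis, fraction), coloured by event type, with a solid line of equal values and dashed lines at a change of 0.1 in either direction. Points on or outside the dashed lines number 97 above and 127 below the solid line. Of those above, 1 has a PSI of 0.8 or more at 16 °C. The pair of A3 events of AT1G78865 lies farthest from the solid line.

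The farthest member in the higher direction was an A3 event of AT5G26180 (chromosome 5, 9149073 to 9153503, forward strand of TAIR10.1), annotated as a methyltransferase that uses S-adenosylmethionine. Its PSI of 0.79 at 25 °C stood against 0.31 at 16 °C, and the change was 0.48. The next was an ES event of AT5G52070 (chromosome 5, 21161132 to 21165565, forward strand), which encodes a protein with an Agenet domain, a fold related to Tudor domains. PSI reached 0.68 at 25 °C, against 0.26 at 16 °C, so the form with the exon was the major form at the higher temperature only. AT3G03350, which encodes a Rossmann-fold protein, had an ES event at 0.55 at 25 °C and 0.17 at 16 °C. A pair of A5 events followed, in the protein kinase gene AT1G79640 (0.87 at 25 °C, 0.52 at 16 °C) and in the 5′-3′ exonuclease family gene AT5G26680 (0.83 at 25 °C, 0.49 at 16 °C). The IR event of *ATG18F* (AT5G54730), a homologue of a yeast autophagy gene, reached 0.88 at 25 °C against 0.56 at 16 °C. The A3 event of AT3G63340, annotated in the table as a protein phosphatase, was at 0.77 and 0.45 in the same order. The remaining members of the 10 with the largest positive change were an ES event of AT5G58370 (0.41 at 25 °C, 0.1 at 16 °C) and A3 events of AT1G11592 (0.68 and 0.39) and of the protease gene *DEG15* (AT1G28320, 0.76 and 0.47). The last places were tied, since 4 IR events, of AT2G38260, AT5G16930, AT5G53010 and AT5G57565, also had a change of 0.29. The 8 events above the tie comprised 3 ES, 2 A3, 2 A5 and 1 IR event.

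The farthest members in the lower direction were a pair of A3 events of AT1G78865 (chromosome 1, 29647738 to 29649951, reverse strand), annotated as a noncoding RNA. PSI was down to 0.07 and 0.03 at 25 °C, against 0.67 and 0.53 at 16 °C, and the changes were −0.6 and −0.5. Of the forms that each event compares, the more frequent one at 16 °C was thus nearly absent 1 day after the move. IR events of the same locus were at 0.97 and 1 at 25 °C against 0.9 and 0.91 at 16 °C. The forms that the A3 events compare need therefore not be the main transcripts of the locus. AT1G36070, which encodes a WD40 repeat protein, had an A3 event at 0.15 at 25 °C and 0.56 at 16 °C. The protein of AT4G04200 belongs to the microsomal signal peptidase, the enzyme that removes the leader of secreted proteins, and an IR event of it was at 0.48 at 25 °C and 0.86 at 16 °C. An IR event of the F-box gene AT5G38590 was at 0.51 and 0.86, and the A5 event of the exonuclease family gene AT3G52050 at 0.57 and 0.91, each with the 25 °C value first. The other members of the 10 were a second IR event of AT4G04200 (0.35 at 25 °C, 0.66 at 16 °C), an A5 event of the noncoding locus AT2G07042 (0.31 and 0.61), an ES event of AT2G23985, a protein of unknown function (0.22 and 0.52), and an A3 event of AT1G62920, annotated with a proteasome maturation domain (0.27 and 0.56). The tenth place was tied with the IR event that names no gene (0.15 at 25 °C, 0.44 at 16 °C). The 9 events above the tie comprised 3 A3, 3 IR, 2 A5 and 1 ES event.

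**Figure D2:**
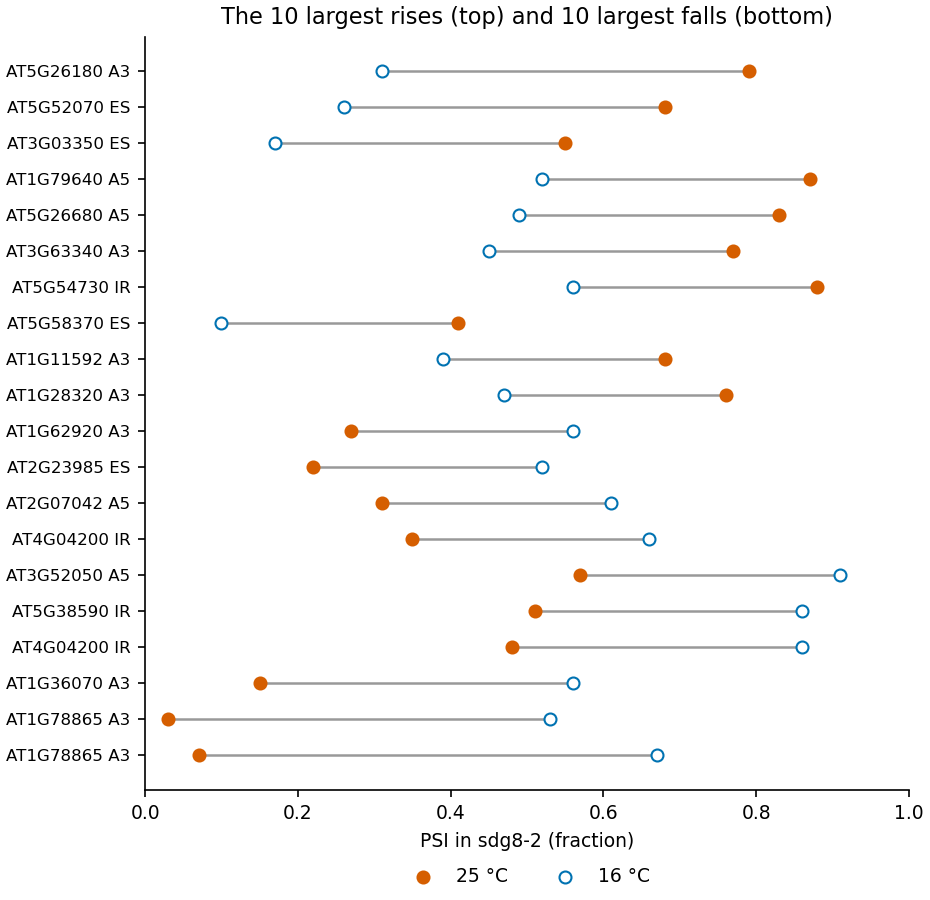
PSI in *sdg8-2* (horizontal axis, fraction) at 25 °C (filled) and 16 °C (open) of the 10 events with the largest positive change, at the top, and the 10 with the largest negative change, at the bottom, with gene and event type at the left. The 25 °C value lies 0.29 or more to the right in the upper 10 and 0.29 or more to the left in the lower 10.

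The direction of change varied with baseline PSI. Of the 95 events with a PSI of 0.8 or more at 16 °C, 28 were higher and 66 lower at 25 °C, and 36 were lower by at least 0.1 against 1 that was higher by that much. A PSI over 0.9 leaves no room for a gain of 0.1, which held for 42 of the 95, and 1 of the other 53 gained as much. At the other end, 68 events were under 0.2 at 16 °C, of which 20 were higher and 5 lower by at least 0.1, and 20 of the 68 lay under 0.1 with no room for such a loss. Between these ends both directions were frequent. From 0.2 to under 0.4, 31 of 85 events were higher and 21 lower by the limit, from 0.4 to under 0.6 it was 22 and 34 of 72, and from 0.6 to under 0.8 23 and 31 of 77. Events near the middle had the lowest median change, −0.085.

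The 16 °C value enters both the bin and the change, so the bins were repeated with other baselines. With the WT value at 16 °C as the baseline, the top bin had 5 higher and 28 lower events of 84 and the bottom bin 17 higher and 7 lower of 69. With the mean of the 16 °C and 25 °C values of *sdg8-2*, the imbalance by the limit was smaller at both ends. It was 9 higher and 20 lower of 85 in the top bin and 11 higher and 9 lower of 68 in the bottom bin. By sign alone the bottom bin had no lean to higher PSI. Its counts were 34 higher and 33 lower with the 16 °C value of *sdg8-2*, 33 and 35 with that of WT, and 23 and 44 with the mean.

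**Figure D3:**
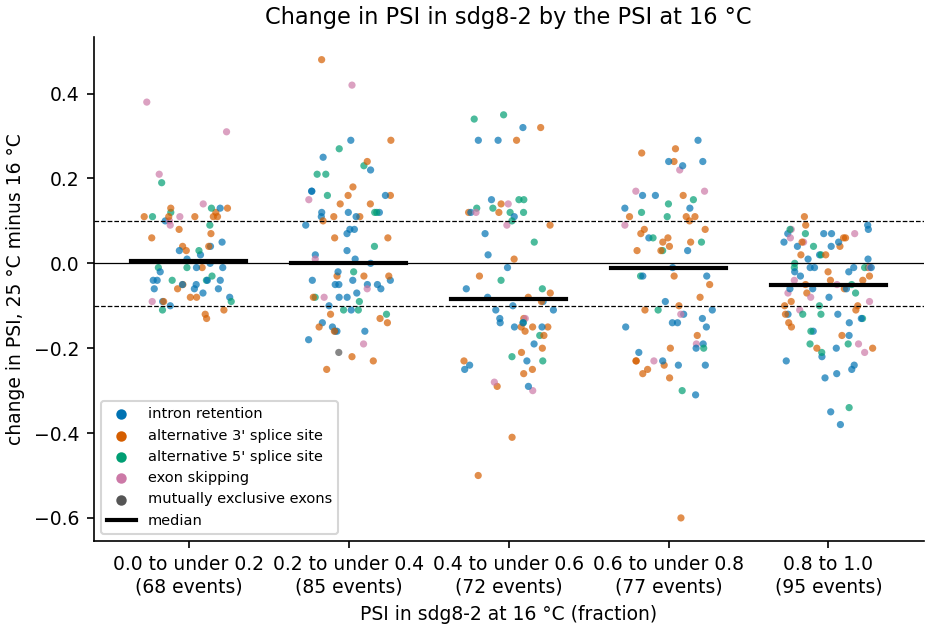
Change in PSI in *sdg8-2*, 25 °C minus 16 °C (vertical axis), of each event in 5 bins of its PSI at 16 °C (horizontal axis, fraction), coloured by event type, with the median of each bin as a bar and dashed lines at 0.1 in either direction. A single point of the 95 in the bin from 0.8 to 1 lies at or above 0.1, and 36 lie at or under −0.1.

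Of the forms that an event compares, the more frequent one changed in 64 events. PSI was over 0.5 at 25 °C and under it at 16 °C in 25 events, and under 0.5 at 25 °C and over it at 16 °C in 39. By type, the counts of the first and the second kind were 6 and 18 for IR, 9 and 15 for A3, 5 and 2 for A5 and 5 and 4 for ES. Over all types the counts were 23 and 41 in *sdg26-1* and 26 and 36 in WT. Some crossings were small, as in the A3 event of *FEI1* (AT1G31420), at 0.48 at 25 °C and 0.51 at 16 °C. In *sdg8-2* the IR events lost the retained form as the more frequent form in 18 rows and gained it in 6, with more than 1 row from some genes. Those that lost it included *GPDHC1* (AT2G41540), a glycerol-3-phosphate dehydrogenase family gene, at 0.37 at 25 °C and 0.6 at 16 °C, and *UGT80B1* (AT1G43620), a sterol glucosyltransferase gene, at 0.29 and 0.54. An IR event that gained it lay in AT5G53010, annotated as a calcium-transporting ATPase, with 0.7 at 25 °C and 0.41 at 16 °C. Near-complete splicing to a single form stayed rare, with a PSI of 0.95 or more in 19 events at 25 °C and 15 at 16 °C, and of 0.05 or less in 15 and 13.

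IR was the most frequent type, with 154 events in 139 genes, and most of its events were lower at 25 °C. PSI at 25 °C was higher in 55, lower in 97 and equal in 2, by at least 0.1 higher in 27 (17.5%) and lower in 51 (33.1%), beside 24.4% and 32.0% over all listed events. The median change was −0.04. More IR events were lower than higher in the other genotypes too, by the limit 63 against 30 in *sdg26-1* and 41 against 36 in WT. The lower direction was the more frequent among well and poorly retained introns alike, and by the limit the counts were uneven among the well retained and close among the others. Of 80 IR events with a PSI of 0.5 or more at 16 °C, 55 were lower and 25 higher (median −0.08), and by the limit 37 were lower and 10 higher. Of 74 with less, 42 were lower and 30 higher (median −0.04), and by the limit 14 were lower and 17 higher. Split by the WT value at 16 °C instead, the counts by the limit were 32 lower and 9 higher of 72, and 19 lower and 18 higher of 82. After *ATG18F*, 4 IR events shared a change of 0.29. They were those of AT5G16930, which encodes an ATPase of the AAA type (0.97 at 25 °C, 0.68 at 16 °C), AT2G38260, a transcribed pseudogene (0.64 and 0.35), AT5G57565, annotated as a protein kinase (0.81 and 0.52), and AT5G53010.

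A few genes have a single annotated intron, so that the retained intron can be shown, as long as the assembled transcripts did not add another. In AT3G15358, a gene of unknown function, the retained form was at 0.69 at 25 °C and 0.95 at 16 °C. In AT4G02540, which encodes a protein with a cysteine- and histidine-rich domain, it was at 0.46 and 0.66. The introns are 97 and 109 bases long. The lines below give the last 10 exon bases and the first 20 intron bases at the donor, and the last 20 intron bases and first 10 exon bases at the acceptor, 5′ to 3′ on the strand of the gene, with the intron's first and last pair of bases in capitals. They are shown as examples of introns that were spliced out of a larger share of transcripts at 25 °C.
AT3G15358 donor, chr3:5178036-5178065, forward strand: gcttcctcagGTttgaaccttctctatctg
AT3G15358 acceptor, chr3:5178123-5178152, forward strand: ccttttctcgatattttcAGgtgattcttc
AT4G02540 donor, chr4:1118888-1118917, forward strand: atctattttgGTaacttcttctcctgtatg
AT4G02540 acceptor, chr4:1118987-1119016, forward strand: catctgctcactctatccAGaacatacgaa

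A3 events numbered 130 in 122 genes and had the widest range, with changes of −0.6 to 0.48. By the limit 33 were higher (25.4%) and 45 lower (34.6%), shares near those over all events. The events at the ends of the range have been given above. AT1G62920 had a second A3 event that was lower as well, at 0.17 at 25 °C and 0.42 at 16 °C. *F2KP* (AT1G07110), the enzyme that makes and breaks fructose 2,6-bisphosphate, had an A3 event at 0.72 at 25 °C and 0.92 at 16 °C. AT2G25730, of unknown function, had its A3 event at 0.87 at 25 °C and 0.6 at 16 °C.

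For 52 of the A3 events the RefSeq annotation holds exactly 1 pair of alternative acceptors in the gene, with a distance of 3 to 338 bases and a median of 5.5. In 21 of the 52 (40.4%) the acceptors lie 3 bases apart, so that an AG follows another AG after 1 base and the choice adds or leaves out 3 bases. Over all 2652 RefSeq genes with a single annotated pair of acceptors, 442 (16.7%) had this distance. This difference was not tested, and it belongs to the listed set and not to *sdg8-2* alone. Among the 21 events, 7 were higher and 5 lower at 25 °C by at least 0.1 (57.1% in either direction, beside 56.4% over all events), and their median size of change was 0.11, equal to that of all events. Among the other 31 it was 6 higher and 10 lower. The match of event and site rests on gene and type, since the table gives no positions of events.

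Acceptors 3 bases apart are shown for 8 of the 21 events because a shift between them changes the transcript by so few bases, 6 from events past the limit and 2, of AT3G62840 and *COR27* (AT5G42900), from events under it. *AGO1*, with acceptors 6 bases apart, is added. Each line has 18 bases up to the end of the upstream AG and 12 bases after it, with both AGs in capitals.
AT1G36070, chr1:13470258-13470287, reverse strand: agctgttttatgtgacAGaAGaagatggag
AT1G77800, chr1:29259966-29259995, forward strand: cttgataactgataatAGcAGcatgtagaa
AT5G26742, chr5:9285607-9285636, reverse strand: attgatgcctttaaacAGaAGttttggagg
AT4G03110, chr4:1377399-1377428, reverse strand: tcgtttccatttccatAGcAGcctcctgga
AT3G47910, chr3:17677419-17677448, reverse strand: cttttttttttgttgtAGtAGtgcctaacg
AT4G14920, chr4:8531579-8531608, reverse strand: gctccattgtttgtcaAGaAGactgtgacc
AT3G62840, chr3:23236103-23236132, reverse strand: ttgaatgtcattctttAGcAGggaaagact
*COR27* (AT5G42900), chr5:17198598-17198627, reverse strand: tcttgtgatgttttaaAGcAGaggtatcgg
*AGO1* (AT1G48410), chr1:17890638-17890667, reverse strand: gttttgctaacatgttAGaatcAGgtatat
In *sdg8-2* the events of the first 3 genes, for a WD40 protein, a PHD finger protein and the chloroplast RNA helicase RH3, were lower at 25 °C, by −0.41, −0.24 and −0.14. Those of the next 3, for the RNA-binding protein RBP-DR1, a protein related to ubiquitin hydrolases and a PHD finger protein with an acyltransferase domain, were higher, by 0.11, 0.13 and 0.24. The events of AT3G62840, a small nuclear ribonucleoprotein gene, and *COR27*, a cold-regulated gene, had changes of 0.06 and 0.07, and are among 9 of the 21 under the limit. In *AGO1* PSI was 0.46 at 25 °C and 0.72 at 16 °C. Members of both directions thus had the same spacing. Over the 21 events the base between the AGs was c in 14, of which 5 were higher and 2 lower by the limit, a in 4, with 1 higher and 2 lower, and t in 3, with 1 of each.

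A5 events, 72 in 68 genes, were balanced. By the limit 24 were higher (33.3%) and 20 lower (27.8%), beside 24.4% and 32.0% over all events, and the median change was −0.005. Besides those of AT1G79640 and AT5G26680, the largest positive change was in AT3G04450, which encodes a homeodomain-like protein, at 0.54 at 25 °C and 0.27 at 16 °C. The largest negative changes after AT3G52050 and AT2G07042 were in a pair of events of *HAC12* (AT1G16710), a histone acetyltransferase of the CBP family, at 0.21 and 0.18 at 25 °C, against 0.44 and 0.4 at 16 °C. The donors of the event farthest up and the event farthest down are shown, 75 bases apart in AT1G79640 and 54 apart in AT3G52050, with 10 exon and 20 intron bases and the first pair of intron bases in capitals.
AT1G79640 upstream donor, chr1:29971422-29971451, reverse strand: cacgatatctGTctctttccttttctctca
AT1G79640 downstream donor, chr1:29971347-29971376, reverse strand: aattttcccgGTactaatattgtttttaat
AT3G52050 upstream donor, chr3:19305025-19305054, forward strand: gcagaaagcgGTaaaatcctccttcttcgt
AT3G52050 downstream donor, chr3:19305079-19305108, forward strand: tttttggaagGTtctttcaaaatcctttct

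Of the 40 ES events in 36 genes, 13 were higher (32.5%) and 10 lower (25.0%) by the limit, beside 24.4% and 32.0% over all events. By sign alone 21 were higher and 19 lower, with a median change of 0.03. With 1 row kept of each near-identical pair described below, the counts by the limit were 12 and 10. In WT 14 were higher and 7 lower by the limit, and in *sdg26-1* 15 and 10. Direction varied with the PSI at 16 °C, as it did over all events. Of 17 events with a PSI under 0.5 at 16 °C, 9 were higher and 2 lower by the limit, with a median change of 0.1, while of 23 with 0.5 or more, 4 were higher and 8 lower, with a median of −0.05. The WT value at 16 °C as the baseline gave medians of 0.105 and −0.045. The largest negative changes were in AT2G23985, whose other ES event was at 0.13 at 25 °C and 0.41 at 16 °C, and in AT2G38260, at 0.54 and 0.77. The exons of 3 genes that included more of a short exon at 25 °C are given with 12 intron bases to each side or, where the exon is longer, by the acceptor before it, with exon bases or the AG in capitals. AT5G18230, which encodes a NOT subunit of the CCR4-NOT complex of mRNA decay, has an exon of 6 bases, which was at 0.68 at 25 °C and 0.56 at 16 °C.
AT5G18230, whole exon, chr5:6026583-6026612, reverse strand: ttttttatgcagTGGAATgtgagcagaatg
*BSH* (AT3G17590), acceptor of the exon, chr3:6018297-6018326, reverse strand: gtttctccttctctctgaAGcctgctgttg
AT5G52070, acceptor of the exon, chr5:21163559-21163588, forward strand: tgtttttgatggtttattAGatattggata
*BSH*, the SNF5 subunit of SWI/SNF chromatin remodelers, had an exon of 39 bases at 0.18 at 25 °C and 0.04 at 16 °C, and that of AT5G52070 is 70 bases long. The only MXE event, in AT3G24360, a gene annotated as a crotonase family member, was at 0.14 at 25 °C and 0.35 at 16 °C.

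In 45 genes the table lists several events, 109 in all. The events of 26 of these genes all had the same sign or none in *sdg8-2*, and in 19 genes the signs were mixed. At least a pair of events passed 0.1 in 28 genes, in the same direction in 16 and in opposite directions in 12. AT2G38260 had the most events, 5 of 4 types, and all passed the limit. Its IR and A5 events were higher, at 0.64 and 0.5 at 25 °C against 0.35 and 0.27 at 16 °C, and its A3 event and both ES events were lower, at 0.43, 0.54 and 0.7 at 25 °C against 0.7, 0.77 and 0.89 at 16 °C. In AT3G03350 the ES event was higher and both A3 events lower, at 0.1 and 0.07 at 25 °C against 0.32 and 0.3 at 16 °C. The 3 IR events of AT4G04200 were all lower, the third at 0.6 at 25 °C and 0.85 at 16 °C. So were the 3 of AT1G61970, a gene of the mitochondrial transcription termination factor family, at 0.65, 0.7 and 0.33 at 25 °C against 0.92, 0.92 and 0.56 at 16 °C.
In AT3G45050 a pair of A5 events was higher by 0.15 each and the IR event lower by −0.14, and in AT1G10890 the A5 event was higher by 0.13 and the IR event lower by −0.11. *PLDGAMMA2* (AT4G11830), a phospholipase D gene, had an A5 event at 0.91 at 25 °C and 0.77 at 16 °C and an IR event at 0.53 and 0.77. The 4 events of AT2G02570 stayed within 0.06 of their 16 °C values. In the noncoding locus AT1G78865 the IR events, at 0.97 and 1 at 25 °C against 0.9 and 0.91 at 16 °C, were opposite in sign to its A3 events, and in AT3G42806.1 a pair of A5 events was higher by 0.12 and 0.13 and the IR event lower by −0.16. Rows under *TAP1* (AT1G70610), a transporter gene, hold A3 events of opposite sign, at 0.55 and 0.25 at 25 °C against 0.39 and 0.37 at 16 °C, but both are near-identical to rows of the neighbour AT1G70620 in the same locus, so the gene is uncertain, and with 1 row of each such pair kept, 11 in place of 12 genes had opposite directions. Events of a gene are not independent, since 1 transcript can carry several of them.

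Some rows share a source. The 397 events fall into 329 assembled loci, 4 of which hold events under 2 gene names, and 8 pairs of rows of the same type and locus had all 6 PSI values within 0.01 of each other, 5 of them across 2 genes. An ES event under *AAE18* (AT1G55320), an acyl-activating enzyme gene, is such a twin of the ES event of its neighbour *SCL33* (AT1G55310), both higher by 0.17 in *sdg8-2*. The other events listed under *AAE18*, an ES event at 0.85 at 25 °C and 0.63 at 16 °C and IR events at 0.92 and 0.61 at 25 °C against 0.68 and 0.36 at 16 °C, carry the same locus, so the gene they belong to is uncertain. With 1 row of each such pair kept, 93 events were higher and 125 lower by the limit.

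Loci that the table annotates as unknown, with no protein, gave 32 events under 19 names, and 7 were higher (21.9%) and 15 lower (46.9%) by at least 0.1, beside 24.4% and 32.0% over all events. Their median size of change was 0.155, against 0.11 in the 365 other events. Along with AT1G78865 and AT2G07042 they included IR events of AT4G07507.1, at 0.45 and 0.24 at 25 °C against 0.69 and 0.39 at 16 °C. Leaving them out made 90 events higher and 112 lower.

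Functions were described with 10 lists of genes, which held 145 of the events (36.5%). The lists mix event types, so higher and lower are directions of PSI and not a shared outcome of splicing. SR proteins are RNA-binding splicing regulators with arginine- and serine-rich tails whose own transcripts are heavily alternatively spliced. Of their 11 events in 9 genes, 5 were higher (45.5%) and 2 lower by at least 0.1, beside 24.4% and 32.0% over all events, and the median change was 0.06, beside −0.03 over all events. For the same events the counts were 3 higher and 4 lower in *sdg26-1*, and 4 and 2 in WT. *SCL33* had its ES event at 0.87 at 25 °C and 0.7 at 16 °C, and the A3 event of *SR30* (AT1G09140) was at 0.25 and 0.13. Small changes in the same direction were found for A3 events of *SR34* (AT1G02840; 0.33 at 25 °C, 0.22 at 16 °C) and *RS2Z33* (AT2G37340; 0.89 and 0.78). *RS40* (AT4G25500) had an IR event that was higher, at 0.24 at 25 °C and 0.11 at 16 °C, and an ES event that was lower, at 0.61 and 0.82. A pair of IR events of *SR34b* was at 0.64 and 0.55 at 25 °C, against 0.77 and 0.64 at 16 °C. *RS31*, *RS31a* and *RS41* stayed under the limit, with changes of −0.09, −0.03 and 0.06.
The annotated acceptors of *SR30* lie 338 bases apart, far more than those of the closely spaced kind above. They are given with 20 intron and 10 exon bases and the AG in capitals.
*SR30* upstream acceptor, chr1:2943555-2943584, reverse strand: ttgcgttgtttgttttctAGatctggctca
*SR30* downstream acceptor, chr1:2943217-2943246, reverse strand: ggtttttggtcttgctgcAGgtcccaatca

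Of the 13 events of other splicing factors, 1 was higher (7.69%) and 5 lower (38.5%) by the limit, beside 24.4% and 32.0% over all events, with a median of −0.06. The share that was lower was near that of all events. U2AF65, the large subunit of the factor that recognises the pyrimidine tract before the acceptor, is encoded by *U2AF65A* (AT4G36690) and *U2AF65B* (AT1G60900). The A3 events of both were lower, at 0.43 at 25 °C and 0.66 at 16 °C in *U2AF65A* and at 0.39 and 0.52 in *U2AF65B*, while the IR events had changes of 0.17 and 0.07. RNA helicase genes of this list had A3 events with lower PSI, AT3G62310 at 0.1 at 25 °C and 0.35 at 16 °C and AT2G47250 at 0.42 and 0.58. AT5G38600, a gene for a spliceosome-associated protein, had its IR event at 0.28 and 0.41. *PTB1*, AT3G52120, AT4G35785, AT5G55100, AT3G62840 and *AFC1*, which encodes a kinase of SR proteins, had changes between −0.07 and 0.08.
The annotated acceptors of *U2AF65A* are 173 bases apart and are shown in the same form.
*U2AF65A* upstream acceptor, chr4:17294594-17294623, reverse strand: ttggttgtgctgttttacAGccttttgcta
*U2AF65A* downstream acceptor, chr4:17294421-17294450, reverse strand: ctttaactcttaaaatgcAGgtgctttgac

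Other RNA-binding proteins had small changes. Of 18 events in 14 genes, 2 were higher (11.1%) and 0 lower by the limit, beside 24.4% and 32.0% over all events. The median size of change was 0.055, beside 0.11 over all events. In WT 2 of the 18 events were past the limit in either direction, and in *sdg26-1* 7. The largest were an IR event of the DEAD box helicase gene *DRH1* (AT3G01540; 0.89 at 25 °C, 0.76 at 16 °C) and the A3 event of *RBP-DR1* (0.3 and 0.19). RNA silencing and mRNA decay gave 5 events with a median of −0.04. After *AGO1*, which encodes the main slicer of the microRNA pathway, the IR event of *VCS*, a scaffold of mRNA decapping, was at 0.63 at 25 °C and 0.8 at 16 °C, and *RDR6*, which makes double-stranded RNA, had a change of 0.05.

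Clock and flowering genes had 13 events, 3 higher and 5 lower by the limit, a share of 61.5% in either direction that is near the 56.4% over all events, and a median of −0.04. The IR event of *LNK2* (AT3G54500), a coactivator of clock genes, was at 0.46 at 25 °C and 0.24 at 16 °C, and the ES event of its relative *LNK1* (AT5G64170) at 0.48 and 0.6. *MAF3* (AT5G65060), a MADS-box flowering repressor close to *FLM*, had its ES event at 0.39 at 25 °C and 0.18 at 16 °C. The A5 event of *JMJD5*, a jumonji-domain gene tied to the clock, was at 0.9 and 0.78. The lower events were a pair of A3 events of AT5G06980 (0.53 and 0.77 at 25 °C, 0.73 and 0.92 at 16 °C), the IR event of the NAC gene *LOV1* (0.63 and 0.75) and the A5 event of *NF-YB1* (0.71 and 0.83). The 3 events of *PRR7*, a repressor of morning clock genes, had changes of −0.08, −0.04 and 0.08, and *COR27* one of 0.07.

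Chromatin genes had the largest share past the limit of all 10 lists but no lean, with 7 of 22 events higher (31.8%) and 9 lower. The share in either direction was 72.7%, beside 56.4% over all events. For the same events it was 68.2% in WT, beside 50.9% over all events in WT. In *sdg26-1* it was 54.5%, beside 59.4%. Their median was 0 and their median size of change 0.14. Apart from AT5G52070 and AT4G14920, no member was higher by 0.2. AT1G62310, a jumonji-domain gene, had its IR event at 0.57 at 25 °C and 0.42 at 16 °C, and *SUVR2*, a SET-domain gene, its A5 event at 0.29 and 0.16. In the lower direction, the A3 event of *SHL1*, which encodes a reader of histone methylation with PHD and BAH domains, was at 0.2 at 25 °C and 0.4 at 16 °C. *SDG25* (AT5G42400), a SET-domain methyltransferase gene, had its A3 event at 0.07 and 0.23 and its IR event at 0.87 and 0.88. Both IR events of the Tudor-like gene AT2G25590 were lower by −0.16. Acetylation genes of both kinds were present, with *HAC12* lower, *HAC1* at 0.94 at 25 °C and 0.9 at 16 °C, and the sirtuin gene *SRT2* at 0.66 and 0.77. The corepressor genes *TPR1* and *LUH* had changes of 0.1 and 0.01.

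**Figure D4:**
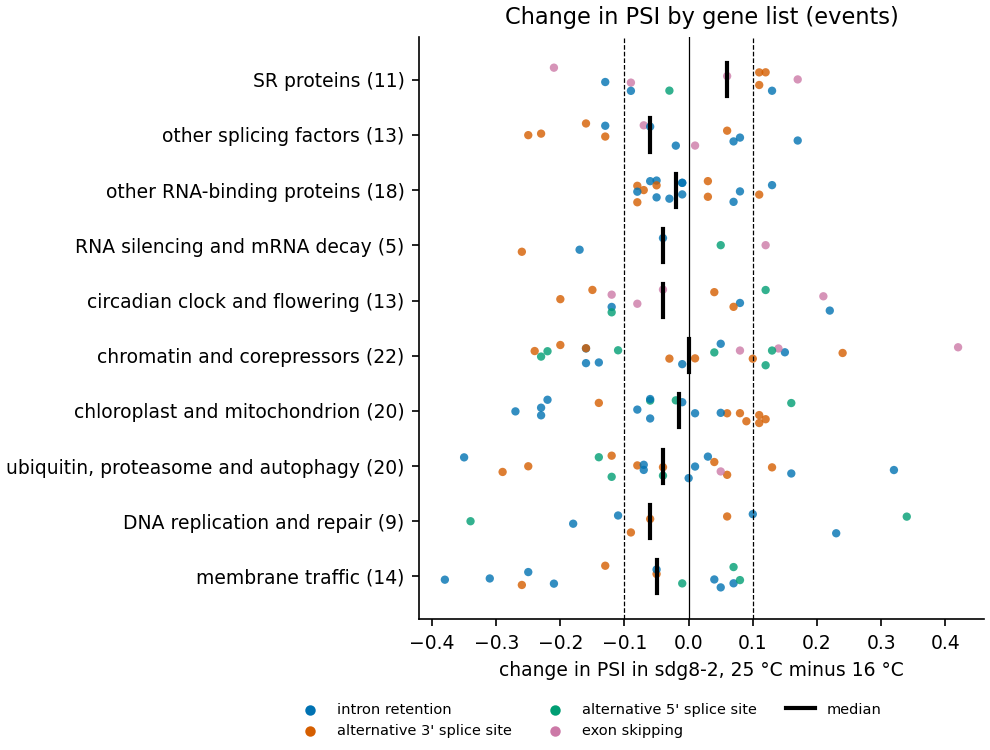
Change in PSI in *sdg8-2*, 25 °C minus 16 °C (horizontal axis), of each event in the 10 gene lists (rows, with the number of events), coloured by event type, with the median as a bar and dashed lines at 0.1 in either direction. Events of other RNA-binding proteins keep between −0.08 and 0.13, and membrane traffic has 6 events at or under −0.1 and none at or over 0.1.

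The remaining lists held genes of cell functions, and their shares are to be read beside 24.4% higher and 32.0% lower over all events. Membrane traffic had 6 of 14 events lower (42.9%) and 0 higher by the limit, with a median of −0.05, and 3 of the 6 belong to AT4G04200. The others were the A3 events of AT1G01910, annotated as a P-loop hydrolase (0.15 at 25 °C, 0.41 at 16 °C), and *ORP3A* (0.06 and 0.19) and the IR event of the VPS53 gene AT1G50970 (0.51 and 0.72). In DNA replication and repair 3 of 9 events were higher and 3 lower (33.3% each, median −0.06), among them the IR event of *REV1*, a translesion polymerase gene, at 0.96 at 25 °C and 0.73 at 16 °C, and that of AT2G22260 at 0.16 and 0.34. Genes of ubiquitin, the proteasome and autophagy had 3 of 20 events higher and 6 lower (30.0% lower, median −0.04), and *UEV1C* and *UEV1D-4*, which encode ubiquitin E2 variants, had A5 events at 0.28 and 0.22 at 25 °C against 0.42 and 0.34 at 16 °C. Of 20 chloroplast and mitochondrial events 4 were higher and 5 lower (25.0% lower, median −0.015). The IR event of the mitochondrial carrier gene *MBAC1* was at 0.74 at 25 °C and 0.97 at 16 °C, and the A5 event of *OTP86*, a chloroplast RNA editing factor gene, at 0.46 and 0.3. The A5 event of *RCA*, which encodes rubisco activase, was at 0.49 and 0.55. The lists are small, and no list was tested against the others.

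Set beside the other genotypes, the change in *sdg8-2* had the sign of that in *sdg26-1* in 357 of 397 events (89.9%) and that of WT in 346 (87.2%), and 335 events had the same sign in all 3. The median size of change was 0.11 in *sdg8-2*, 0.11 in *sdg26-1* and 0.1 in WT. Counts by the limit were 97 higher and 127 lower in *sdg8-2*, 98 and 138 in *sdg26-1*, and 92 and 110 in WT. An event was listed if called in any genotype, so agreement among the genotypes is partly built into the list. In the 236 events past 0.1 in *sdg26-1*, a set that neither of the compared genotypes chose by this limit, the median size was 0.14 in *sdg8-2* and 0.13 in WT, and the change was larger in *sdg8-2* in 122 events, smaller in 102 and equal in 12. Levels also differed at a fixed temperature. PSI in *sdg8-2* differed from that of WT by at least 0.1 in 58 events at 25 °C (31 higher in *sdg8-2*, 27 lower) and in 71 at 16 °C (45 higher, 26 lower). Whether any of these differences exceeds that between samples cannot be told from pooled values.

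Of the 224 events past 0.1 in *sdg8-2*, 126 were past it in both other genotypes, 36 in *sdg26-1* only, 24 in WT only and 38 in neither. The 38 comprised 17 A3, 9 A5, 9 IR and 3 ES events, 21 higher and 17 lower. In 23 of the 38 the change was 0.12 or less in size, and in 10 it differed by at least 0.1 from that in each other genotype, so most lay near the limit. The 4 with a change of at least 0.2 were the IR event of AT5G16930 (change of 0.29 in *sdg8-2*, 0.04 in *sdg26-1* and 0.07 in WT), the A3 event of AT2G25730 (0.27, −0.03 and 0.03), the A3 event of AT4G14920 (0.24, 0.05 and 0.04) and the IR event of AT4G19510, a disease resistance gene of the TIR-NBS-LRR class (−0.2, −0.05 and 0.04). In AT5G16930 the PSI at 25 °C was close in all genotypes, 0.97 in *sdg8-2*, 0.99 in *sdg26-1* and 0.99 in WT, and the values at 16 °C were 0.68, 0.95 and 0.92 in the same order. AT3G04450 differed at both temperatures, with 0.54 at 25 °C and 0.27 at 16 °C in *sdg8-2*, 0.84 and 0.62 in *sdg26-1*, and 0.77 at both in WT.

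A few events went in opposite directions by at least 0.1. Against WT there were 6. A pair of A5 events of the pseudogene AT5G34790.1 had a change of 0.21 each in *sdg8-2*, 0.16 and 0.2 in *sdg26-1*, and −0.28 and −0.27 in WT. The IR event of AT5G26160, of unknown function, had changes of −0.24, −0.13 and 0.18 in *sdg8-2*, *sdg26-1* and WT, and the A3 event of *SDG25* of −0.16, 0.02 and 0.13. *SRT2* had changes of −0.11, −0.01 and 0.16. The levels at 16 °C differed as well. PSI was 0.24 in *sdg8-2* against 0.46 and 0.47 in WT for the pair of AT5G34790.1. It was 0.93 in *sdg8-2* and 0.62 in WT for AT5G26160, 0.23 and 0.05 for *SDG25*, and 0.77 and 0.65 for *SRT2*. The IR event of AT1G27921, annotated as a potential natural antisense RNA, was opposite to both, at 0.46 at 25 °C and 0.65 at 16 °C in *sdg8-2*, 0.65 and 0.45 in *sdg26-1*, and 0.69 and 0.47 in WT. *ATG18F* was opposite to *sdg26-1*, with changes of 0.32 in *sdg8-2*, −0.13 in *sdg26-1* and 0.11 in WT.
The A3 event of AT5G17570 had a change of 0.05 in *sdg8-2*, −0.09 in *sdg26-1* and −0.33 in WT, and that of the kinase gene AT4G32000 one of −0.08, 0.02 and 0.28. In AT3G15358 the IR event had changes of −0.26, −0.2 and 0.05.
The A3 event of AT1G36070 was lower in all 3, by −0.41 in *sdg8-2*, −0.11 in *sdg26-1* and −0.09 in WT, and its levels differed mainly at 25 °C, with 0.15 in *sdg8-2*, 0.41 in *sdg26-1* and 0.46 in WT.

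**Figure D5:**
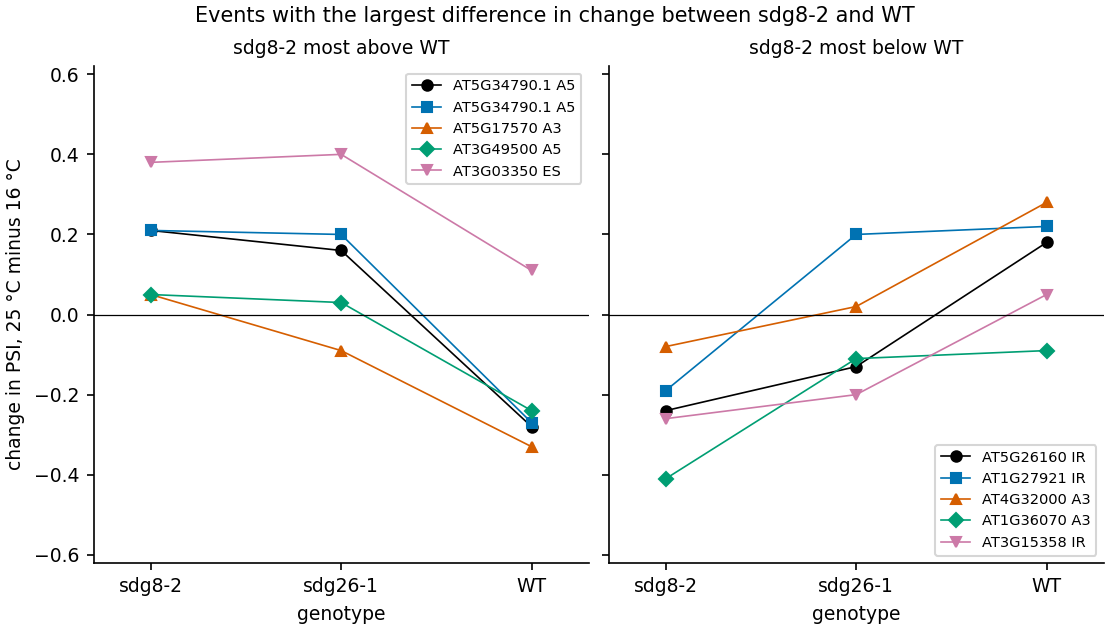
Change in PSI, 25 °C minus 16 °C (vertical axis), in *sdg8-2*, *sdg26-1* and WT (horizontal axis) of the 5 events in which *sdg8-2* lay most above WT (left) and the 5 in which it lay most below WT (right), with a marker and line for each event. Each point is 1 pooled difference. In AT5G34790.1, AT3G49500 (*RDR6*), AT5G26160 and AT3G15358 the sign in *sdg8-2* is that of *sdg26-1* and opposite to that of WT.

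In the other direction, 30 events were under 0.1 in *sdg8-2* and past it in both other genotypes. In *SDG25* the IR event had changes of −0.01 in *sdg8-2*, −0.32 in *sdg26-1* and −0.12 in WT, the A5 event of *RS31a* of −0.03, −0.25 and −0.17, and the A5 event of *ABA3* (AT1G16540), a molybdenum cofactor sulfurase gene, of 0.04, −0.29 and −0.2. The A3 event of AT3G55080, a SET-domain gene, had changes of −0.03, 0.14 and 0.22. *RDR6* was near its starting level in both mutants, with changes of 0.05 in *sdg8-2* and 0.03 in *sdg26-1*, beside −0.24 in WT. Starting levels differed in some of these genes. PSI at 16 °C was 0.27 in *sdg8-2* and 0.12 in WT for AT3G55080, 0.27 and 0.47 for *ABA3*, and 0.49 and 0.67 for *RDR6*. It was closer for *SDG25* (0.88 and 0.96) and *RS31a* (0.64 and 0.68).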

How the data were processed

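RNA of SAM-enriched tissue from *sdg8-2*, *sdg26-1* and WT plants at 25 °C and 16 °C was sequenced by the authors as stranded mRNA libraries. The submitters' processing notes and the study's methods name TopHat2, Cufflinks with Cuffmerge, the TAIR10 genome and MISO, with versions not given in the sources used here. For each condition the authors merged the 3 samples and deposited PSI as a fraction from 0 to 1, 1 value per event and condition. The deposited table also holds the authors' own difference and a yes or no call per genotype, which were not used.

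The change was computed as 25 °C minus 16 °C for 397 events, with the 2 *FLM* rows set aside, and described by counts and medians. No test was run, since pooled values have no replicate error and events are not replicates. The members, gene lists and limit of 0.1 were chosen with earlier results of these data known. The text names the 10 largest changes in each direction, the 3 largest of each type and direction, the 5 largest differences from WT in each direction, events opposite to WT by at least 0.1, genes with 3 or more events, members of the lists of SR proteins, other splicing factors, silencing, clock and chromatin genes, and the 2 to 4 largest changes of each other list. All other events named were chosen after their values were seen.

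Of 333 gene entries, 331 had a match in RefSeq for TAIR10.1, and 305 of 314 coding spans given in the table had the same start and end there, so its coordinates and sequences were used. Splice sites were matched by gene and type, where the annotation holds exactly 1 variant of that type or a single intron. The counting was tested on simulated data. Python 3.11.15, numpy 2.4.6, pandas 2.3.3 and matplotlib 3.10.9 were used.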

Additional observations from a re-analysis of the deposited data

How the results depend on the processing

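Counts depended mainly on the limit. Of 125 counts and shares under other settings, 81 stayed within 1.5 times the value reported and 44 did not. At a limit of 0.2, 29 events were higher and 51 lower, with 10 and 19 IR, 8 and 21 A3, 6 and 6 A5, and 5 and 4 ES events. At 0.05, 41 IR and 20 ES events were higher and 17 ES events lower. For the lists at 0.2, higher and lower counts were 0 and 1 for SR proteins, 0 and 2 for other splicing factors, 0 and 1 for silencing and decay, 2 and 4 for chromatin, and 1 and 3 for ubiquitin, and 0 other RNA-binding and 0 organelle events were higher and 1 clock and 1 repair event lower. At 0.05, 4 SR events were lower, 4 of other splicing factors higher, 4 and 8 of other RNA-binding proteins higher and lower, 2 of silencing and 5 of the clock higher, 8 and 9 of organelles higher and lower, 5 of ubiquitin higher, 5 of repair lower and 4 of membrane traffic higher. With the WT baseline 5 events of the top bin were higher. With the mean of both temperatures, 11 and 9 events were higher and lower in the bottom bin, 40 were lower from 0.2 to 0.4, and 9 and 20 were higher and lower in the top bin. A limit of 0.11, the *FLM* rows, 1 event per gene or locus, loci with no protein left out and a 16 °C PSI of 0.1 to 0.9 each kept the counts over all events within 1.5 times, as did keeping 1 row of near-identical pairs, a setting chosen after seeing the data. That margin is too wide to speak to the direction, with 97 higher and 127 lower. Higher and lower counts were 92 and 120 at 0.11, 82 and 104 with 1 event per gene, and 79 and 104 with 1 per locus. With a 16 °C PSI of 0.1 to 0.9 they were 90 and 110. No paired analysis was possible because the authors merged the samples of each condition, and for the same reason no sample could be left out in turn. Unknown depth limits every value, and a change near 0.1 may not exceed sampling noise.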
